A study of Rattus norvegicus with 6 samples.

Results

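The serotonin receptors described here are the 10 genes Htr1a, Htr1b, Htr1d, Htr1f, Htr2a, Htr2c, Htr4, Htr5a, Htr6 and Htr7, taken by gene symbol from a table of 32662 features, and each matched 1 feature. The tissue was amygdala from Sprague Dawley rats, which are outbred, and the labels give male sex and an age of 38 postnatal days. Of 6 poly(A)-selected libraries, 3 came from rats that were behaviourally tested (B-CTRL) in a study of social play, and 3 from rats without such testing (NB-CTRL). No genotype, drug or other agent is given for either group. Whether every sample was its own animal is not stated, and p-values therefore cover the spread of these samples alone, which may be technical. Levels are FPKM, fragments per length of transcript and per mapped fragments of the library. Levels of different genes can be set side by side only as far as the annotated lengths are right, which was not tested.

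Serotonin is made by neurons of the brainstem raphe nuclei, whose axons spread through the forebrain and reach the amygdala, and the receptors stand on the cells that receive it. All 10 receptors described here act through G proteins. Htr1a, Htr1b, Htr1d, Htr1f and Htr5a couple to Gi, which lowers cyclic AMP and opens potassium channels. Htr2a and Htr2c couple to Gq, which activates phospholipase C and releases calcium from internal stores. Htr4, Htr6 and Htr7 couple to Gs, which raises cyclic AMP. In the amygdala serotonin acts on principal cells and interneurons and is studied there for its part in fear, anxiety and social behaviour.

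The libraries differed in ways that the group labels do not describe. B-CTRL 1 had 0.317 FPKM of Eif2s3y and 0.0286 FPKM of Kdm5d, genes of chromosome Y, while the other 5 libraries had between 49.5 and 89.9 FPKM of Eif2s3y and between 8.37 and 10.2 FPKM of Kdm5d. B-CTRL 1 thus went against its male label. B-CTRL 1 also had the highest level of 13 of 14 choroid plexus markers, with a summed level of 7506 FPKM, against 75.0 to 90.2 FPKM in B-CTRL 2 and 3 and 54.8 to 118 FPKM in NB-CTRL. Otx2, a choroid plexus marker, was listed at 0 in all 6 libraries. The summed level of 11 matched striatal neuron markers ranged from 1361 to 4815 FPKM in B-CTRL and from 1280 to 3127 FPKM in NB-CTRL. For 11 matched markers of the amygdala's own nuclei the range was 236 to 462 FPKM in B-CTRL and 299 to 403 FPKM in NB-CTRL, and none of them was at 0. Pdyn and Meis2 gave most of these sums, such as 222 and 145 FPKM in B-CTRL 3. Both were lowest in B-CTRL 1 and NB-CTRL 2, where the striatal sums were lowest, so this sum need not follow the amygdala's nuclei alone. Markers of excitatory neurons of the pallium summed to 155 to 622 FPKM in B-CTRL and to 124 to 456 FPKM in NB-CTRL. NB-CTRL 2 had the highest level of 9 of 14 hypothalamic and thalamic markers. The absolute depth of the libraries is unknown. The spacing of low values put it between 0.717 times that of NB-CTRL 1 in B-CTRL 2 and 1.62 times in NB-CTRL 3, a rough estimate.

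Htr1b, Htr1d, Htr1f and Htr6 each ordered 13 or 14 of 15 library pairs as striatal markers did, as described further on. Htr1d matched the others less closely, at 11 or 12 of 15 pairs. The sequences around the annotated starts of these genes are shown to let them be compared. An annotated start need not be where transcription begins, so such stretches are called promoters below by position only. That of Htr1f ends in atggatttt, so it may reach into coding sequence. Each stretch runs from 250 bases before to 50 bases after the gene's start in RefSeq, build GRCr8, 5′ to 3′ on the gene's strand. Capitals mark GGGCGG, the GC box, searched on both strands. The stretches are chr8:91414766-91415065 (minus strand) for Htr1b, chr5:153939485-153939784 (plus strand) for Htr1d, chr11:16090616-16090915 (minus strand) for Htr1f and chr5:156595098-156595397 (minus strand) for Htr6.
Htr1b: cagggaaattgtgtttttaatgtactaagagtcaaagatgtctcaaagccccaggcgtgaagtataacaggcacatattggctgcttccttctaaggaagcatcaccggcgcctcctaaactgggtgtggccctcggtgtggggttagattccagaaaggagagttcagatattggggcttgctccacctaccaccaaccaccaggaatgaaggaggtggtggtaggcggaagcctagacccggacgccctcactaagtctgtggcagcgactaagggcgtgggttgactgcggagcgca
Htr1d: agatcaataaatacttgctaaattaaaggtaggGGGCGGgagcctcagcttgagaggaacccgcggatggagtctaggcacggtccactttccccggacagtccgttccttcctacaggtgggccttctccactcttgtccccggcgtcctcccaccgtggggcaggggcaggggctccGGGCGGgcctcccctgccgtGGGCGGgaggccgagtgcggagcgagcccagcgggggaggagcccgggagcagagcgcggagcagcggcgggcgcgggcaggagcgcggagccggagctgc
Htr1f: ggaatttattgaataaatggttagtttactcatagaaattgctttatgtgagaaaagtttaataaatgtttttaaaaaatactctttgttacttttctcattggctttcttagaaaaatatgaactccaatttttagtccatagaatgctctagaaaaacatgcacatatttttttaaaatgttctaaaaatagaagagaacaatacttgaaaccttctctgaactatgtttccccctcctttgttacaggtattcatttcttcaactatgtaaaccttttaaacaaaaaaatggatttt
Htr6: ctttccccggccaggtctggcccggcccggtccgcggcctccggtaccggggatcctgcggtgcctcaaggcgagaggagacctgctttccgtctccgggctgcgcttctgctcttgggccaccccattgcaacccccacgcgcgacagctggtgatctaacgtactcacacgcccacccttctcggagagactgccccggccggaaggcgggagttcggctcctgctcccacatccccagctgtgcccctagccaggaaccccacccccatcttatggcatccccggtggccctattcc
The G and C content of these stretches was 53.7% for Htr1b, 69.3% for Htr1d, 26.3% for Htr1f and 68.0% for Htr6, and the median over 33469 rat promoters of the same length was 51.7%. Htr1d held the GC box at 3 places and the other 3 genes at none, while 33.1% of all promoters held it. TATAAA was in 0 of the 7 receptor promoters in the table and in 14.2% of all promoters, and TGACG, the core of the cyclic AMP response element, was in 2 of the 7 (Htr5a and Htr7) and in 21.2% of all. All 3 motifs were searched on both strands, and they do not overlap one another. None of them was in all 4 windows, whose base content ranged from low in Htr1f to high in Htr1d.

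Htr2c, the most abundant receptor, covers 233 kb of chromosome X (118084889 to 118318039, build rn6, ENSRNOG00000030877) and shares this locus with small RNA genes. The receptor is known for A-to-I editing of its RNA, which changes its coupling to G protein. The file gives 7 other features the same locus, among them 5 miRNA genes and a snoRNA gene, and all 7 were listed at 0 in all 6 libraries. The mature sequences of some of these miRNAs from RefSeq are shown as the annotated products of the locus whose host transcript was measured, with the seed (bases 2 to 8) in capitals.
rno-miR-448-3p: uUGCAUAUguaggauguccca
rno-miR-764-3p: gAGGAGGCcauaguggcaacugu
rno-miR-1298: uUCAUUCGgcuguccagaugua
rno-miR-1912-3p: cACAGAACaugcagugaga
No 2 of these 4 share a seed. The 0 listed for these miRNA genes gives no level of the mature miRNAs.

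The other 9 receptors lie on 8 chromosomes, with positions in rn6 as the file gives them. Htr1a (chromosome 2, 36246627 to 36247896), Htr1b (chromosome 8, 89129452 to 89130991), Htr1d (chromosome 5, 154800225 to 154801350) and Htr1f (chromosome 11, 1982112 to 1983513) have coding regions known to lack introns, and their loci cover 1125 to 1539 bases. Htr5a (chromosome 4, 199915 to 209599) and Htr6 (chromosome 5, 157503039 to 157518631) are short split genes. Htr2a (chromosome 15, 56666011 to 56735382), Htr7 (chromosome 1, 254530120 to 254671610) and Htr4 (chromosome 18, 57654289 to 57819698) cover 69.4 kb, 141 kb and 165 kb. Htr1d and Htr6 thus share a chromosome, and 8 of the 10 receptors have a locus that no other feature in the table shares.

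All 10 receptors were detected in every library, and their mean levels over the 6 libraries spanned 0.521 FPKM for Htr7 to 59.2 FPKM for Htr2c. Htr2c ranked first in 6 of 6 libraries and Htr7 last in 6 of 6. Behind Htr2c came Htr1b with a mean of 20.0 FPKM, which was above Htr2a in 5 of 6 libraries. Htr2a (9.66 FPKM), Htr6 (8.90 FPKM) and Htr1d (8.43 FPKM) lay close together, and Htr2a was above Htr6 in 4 of 6 libraries and Htr6 above Htr1d in 5 of 6. Htr5a (4.71 FPKM), Htr4 (4.11 FPKM), Htr1a (2.73 FPKM) and Htr1f (2.41 FPKM) followed, and Htr1a was above Htr1f in 2 of 6 libraries only. Among neighbours in this order, Htr2c over Htr1b and Htr1f over Htr7 were the 2 that held in every library. Against all 14043 tested features, Htr2c lay above 86.4% and Htr1a above 19.2% in mean level. The loci of Htr1a, Htr1b, Htr1d and Htr1f cover only 1125 to 1539 bases, so their annotation may hold little beyond coding sequence. Their ranks against the longer genes rest on that annotation.

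**Figure D1:**
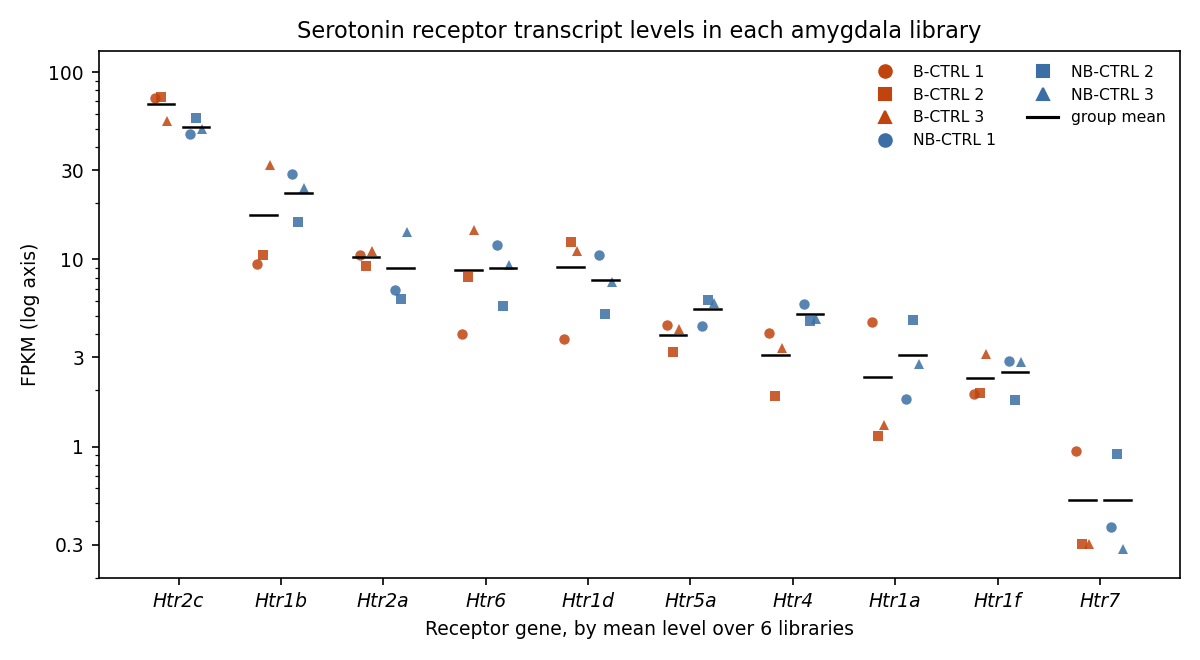
Level of each receptor in FPKM (log axis), with genes ordered by their mean over 6 libraries. Points are libraries, orange for B-CTRL and blue for NB-CTRL, with a shape for each library number, and black lines are group means. Htr2c lies on top between 46.9 and 73.8 FPKM, and the points of the groups overlap for each receptor other than Htr4.

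Transcript levels of the receptors were compared between behaviourally tested and untested rats, the comparison that these groups allow. Htr2c had a higher mean in B-CTRL (67.3 ± 10.7 FPKM, against 51.1 ± 4.99 FPKM in NB-CTRL, SD, n = 3 each) and Htr4 a lower one (3.10 ± 1.12 FPKM, against 5.11 ± 0.603 FPKM), and neither passed the test across all features. None of the 10 receptors passed limma after Benjamini-Hochberg adjustment over 14043 features at 0.05 (lowest adjusted p = 0.400), where 0% of all tested features passed. At an unadjusted p under 0.05 there were 2 of 10 receptors, Htr2c and Htr4, beside 12.3% of all tested features, so little is read from this count. Of the 10, 3 had a higher and 7 a lower mean log2 level in B-CTRL, and their median log2 difference was -0.11, against -0.0024 over all tested features. In bulk tissue a lower level can be fewer cells of a type or less RNA per cell, which cannot be told apart.

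**Figure D2:**
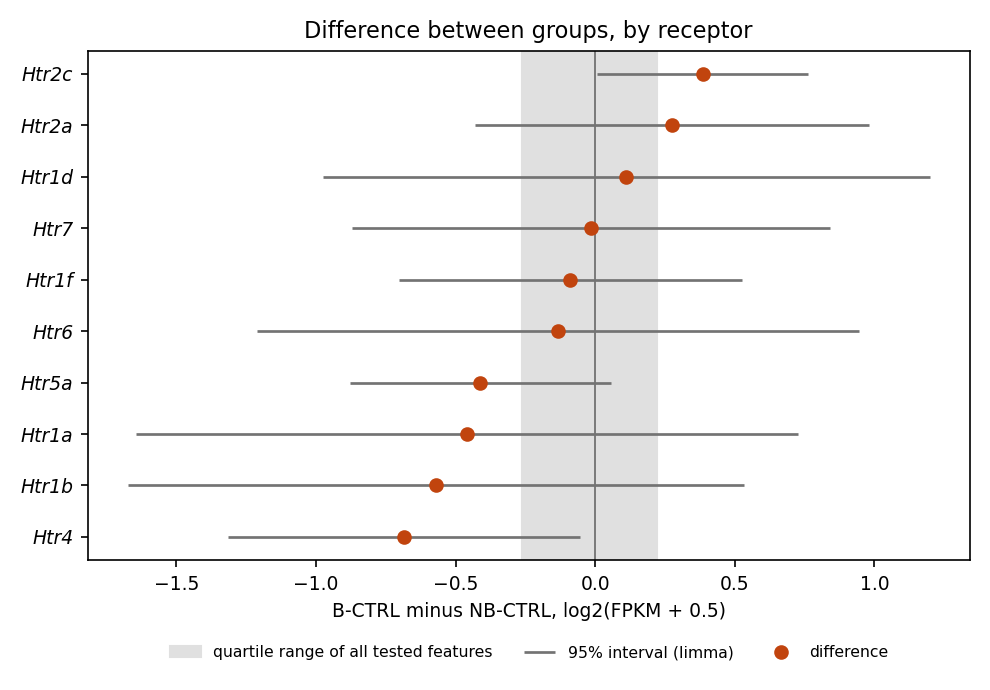
Difference of each receptor, B-CTRL minus NB-CTRL in log2(FPKM + 0.5), with its 95% interval from limma over 3 libraries a group. The grey band spans the quartiles of all tested features (-0.26 to 0.22), and the intervals of 8 of 10 receptors cross 0, all but those of Htr2c and Htr4.

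Of the Gq-coupled receptors, Htr2c stood at 73.1, 73.8 and 54.9 FPKM in B-CTRL 1, 2 and 3, against 46.9, 56.6 and 49.8 FPKM in NB-CTRL 1, 2 and 3. B-CTRL 1 and 2 lay above all NB-CTRL libraries, and B-CTRL 3 lay just below NB-CTRL 2, so the groups overlapped by 1 library. The log2 difference of Htr2c was 0.38 ± 0.16 (SE, limma, unadjusted p = 0.0471, adjusted p = 0.400). Choroid plexus epithelium is a tissue in which Htr2c is known to be abundant. Its markers were high in B-CTRL 1 and near their NB-CTRL levels in B-CTRL 2 and 3. Without B-CTRL 1, the library that went against its label and held these markers, the difference was 0.32 (unadjusted p = 0.124). The part of choroid plexus in the difference was not tested. Without B-CTRL 3 the difference was 0.52, and with the trend of levels with locus length removed it was 0.63, the highest of 16 alternatives. The difference was above 0 in all 16. The filters, the fit without intensity trend and the replicate block leave a log2 difference unchanged, so they could not turn it.

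Htr2a, the receptor through which psychedelic drugs act, stood at 10.5, 9.27 and 11.1 FPKM in B-CTRL and at 6.87, 6.16 and 13.9 FPKM in NB-CTRL. The B-CTRL libraries lay close together, and NB-CTRL held both the lowest and the highest values. The log2 difference was 0.28 ± 0.30 (SE, limma, adjusted p = 0.655). It was 0.62 without NB-CTRL 3, 0.14 without NB-CTRL 1 and 0.064 without NB-CTRL 2. Summed over both Gq-coupled receptors, the level was 83.7, 83.1 and 66.0 FPKM in B-CTRL and 53.8, 62.8 and 63.8 FPKM in NB-CTRL, mostly from Htr2c. The lowest B-CTRL sum lay just above the highest NB-CTRL sum, while each receptor alone overlapped. Of single tested features 11.7% did not overlap with B-CTRL higher, which is no share for sums of 2. The FPKM of all features summed to 579141, 641725 and 583803 in B-CTRL, against 536937, 522422 and 527081 in NB-CTRL. These totals too were higher in each B-CTRL library, and the Gq sums are not scaled to them, so little is read from the gap.

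Of the Gs-coupled receptors, Htr4, which raises cyclic AMP in forebrain neurons, stood at 4.07, 1.88 and 3.37 FPKM in B-CTRL and at 5.81, 4.70 and 4.83 FPKM in NB-CTRL. Each B-CTRL library lay below each NB-CTRL library. Htr4 was the 1 receptor of 10 whose groups did not overlap, while 12% of all tested features did not overlap with B-CTRL lower and 23.7% in either direction. The log2 difference was -0.69 ± 0.27 (SE, limma, unadjusted p = 0.0368, adjusted p = 0.400). It was -0.41 without B-CTRL 2, the shallowest library and the one with the lowest Htr4, -0.88 without B-CTRL 1 and -0.47 with the length trend removed. It was below 0 in all 16 alternatives, counting those that cannot change it. 

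Htr6, a receptor known to be enriched in striatum, stood at 4.01, 8.05 and 14.4 FPKM in B-CTRL and at 11.9, 5.68 and 9.35 FPKM in NB-CTRL. The lowest and the highest of the 6 values both came from B-CTRL. The log2 difference was -0.13 ± 0.46 (SE, limma, adjusted p = 0.898). It turned to 0.31 without B-CTRL 1 and to 0.091 without NB-CTRL 1. Htr7, whose transcript is known from thalamus and hypothalamus, was the scarcest receptor, at 0.948, 0.304 and 0.305 FPKM in B-CTRL and at 0.372, 0.915 and 0.283 FPKM in NB-CTRL. B-CTRL 1 and NB-CTRL 2 held about the same high level and the other 4 libraries a low one. Its log2 difference was -0.015 ± 0.36 (SE, limma, adjusted p = 0.986), at a mean just above the minimum of 0.5 FPKM for testing.

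Of the Gi-coupled receptors, Htr1a, the autoreceptor of raphe neurons and an inhibitory receptor on limbic neurons, stood at 4.61, 1.14 and 1.31 FPKM in B-CTRL and at 1.81, 4.74 and 2.76 FPKM in NB-CTRL. Its highest library had 4.15 times the level of its lowest, the widest range of the 10 receptors. B-CTRL 1 and NB-CTRL 2 were high, as for Htr7. The log2 difference was -0.46 ± 0.50 (SE, limma, adjusted p = 0.657). It was -0.98 without B-CTRL 1, -0.15 without NB-CTRL 2, -0.16 without B-CTRL 2 and -0.23 without B-CTRL 3. With libraries weighted by their scatter about the group it was -0.0058. These weights measure no quality, and within B-CTRL the highest went to B-CTRL 1 (0.903, against 0.313 in B-CTRL 2 and 0.456 in B-CTRL 3). Htr5a stood at 4.47, 3.20 and 4.25 FPKM in B-CTRL and at 4.42, 6.05 and 5.88 FPKM in NB-CTRL. The groups met at the level of B-CTRL 1 and NB-CTRL 1. The log2 difference of Htr5a was -0.41 ± 0.20 (SE, limma, unadjusted p = 0.0763, adjusted p = 0.405).

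Htr1b, which sits on axon terminals and lowers transmitter release, stood at 9.42, 10.5 and 31.8 FPKM in B-CTRL and at 28.6, 15.8 and 24.0 FPKM in NB-CTRL. B-CTRL held 2 low libraries and the highest one. The log2 difference was -0.57 ± 0.47 (SE, limma, adjusted p = 0.549), and it ranged from -0.26 without B-CTRL 1 (unadjusted p = 0.616) to -1.11 without B-CTRL 3 (unadjusted p = 0.00669, adjusted p = 0.113). It was -0.34 without B-CTRL 2 and -0.39 without NB-CTRL 1. B-CTRL 3 was the highest library for Htr1b. Without B-CTRL 3, 3644 of 14043 features had an unadjusted limma p under 0.05, against 1730 with all libraries. Htr1d, the nearest relative of Htr1b and like it a target of triptans, stood at 3.76, 12.5 and 11.0 FPKM in B-CTRL and at 10.6, 5.14 and 7.56 FPKM in NB-CTRL. The lowest and the highest library were both B-CTRL, and the log2 difference was 0.11 ± 0.46 (SE, limma, adjusted p = 0.918). In B-CTRL 2 these relatives parted, since Htr1d was at its highest and Htr1b near its lowest. Htr1f, the target of lasmiditan, stood at 1.92, 1.93 and 3.13 FPKM in B-CTRL and at 2.89, 1.78 and 2.84 FPKM in NB-CTRL, with a log2 difference of -0.089 ± 0.26 (SE, limma, adjusted p = 0.878).

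The spread among libraries of 1 group was wide for most receptors. The median standard deviation within groups was 0.46 on the log2 scale for the 10 receptors, against 0.24 over all tested features. It was 0.77 for Htr1a, 0.73 for Htr1b, 0.71 for Htr1d and 0.71 for Htr6, each wider than in at least 93.8% of tested features. Htr2c (0.20) and Htr5a (0.23) were the 2 below the median of all features. For 7 of 10 receptors this spread exceeded the difference between the groups.

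Some receptors shared their order of libraries and others had opposite orders. Of the 15 pairs of libraries, Htr6 and Htr1b put 14 in the same order, as did Htr6 and Htr1f, and Htr1a and Htr5a. Htr1d put 11 in the same order as Htr1b, 11 as Htr1f and 12 as Htr6. Htr1a and Htr1d put 1 of 15 in the same order, so their orders were nearly opposite. The summed striatal markers were highest in B-CTRL 3, where Htr1b, Htr1f and Htr6 were also highest, and low in B-CTRL 1 and NB-CTRL 2. The striatal marker score, averages the log2 deviations of 11 markers. It stood at -0.86, 0.19 and 0.91 in B-CTRL 1, 2 and 3, against 0.39, -0.82 and 0.18 in NB-CTRL 1, 2 and 3. Htr6 ordered 14 of 15 library pairs as this score did, and Htr1b, Htr1d and Htr1f each ordered 13 of 15. Of all tested features 5.47% ordered at least 13 and 2.04% at least 14 of the pairs that way, and the median was 7. Htr1a ordered 3 of 15 and Htr5a 4 of 15 pairs as the striatal score did. Htr1a ordered 13 and Htr5a 12 of 15 pairs as the score of hypothalamic and thalamic markers did, which was highest in NB-CTRL 2 (1.16). Of all tested features 4.49% ordered at least 13 and 10.2% at least 12 pairs as that score did, and the median was 8. These counts are a description over 6 libraries, chosen after the values were seen, and the part of tissue composition in the differences between groups was not tested.

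**Figure D3:**
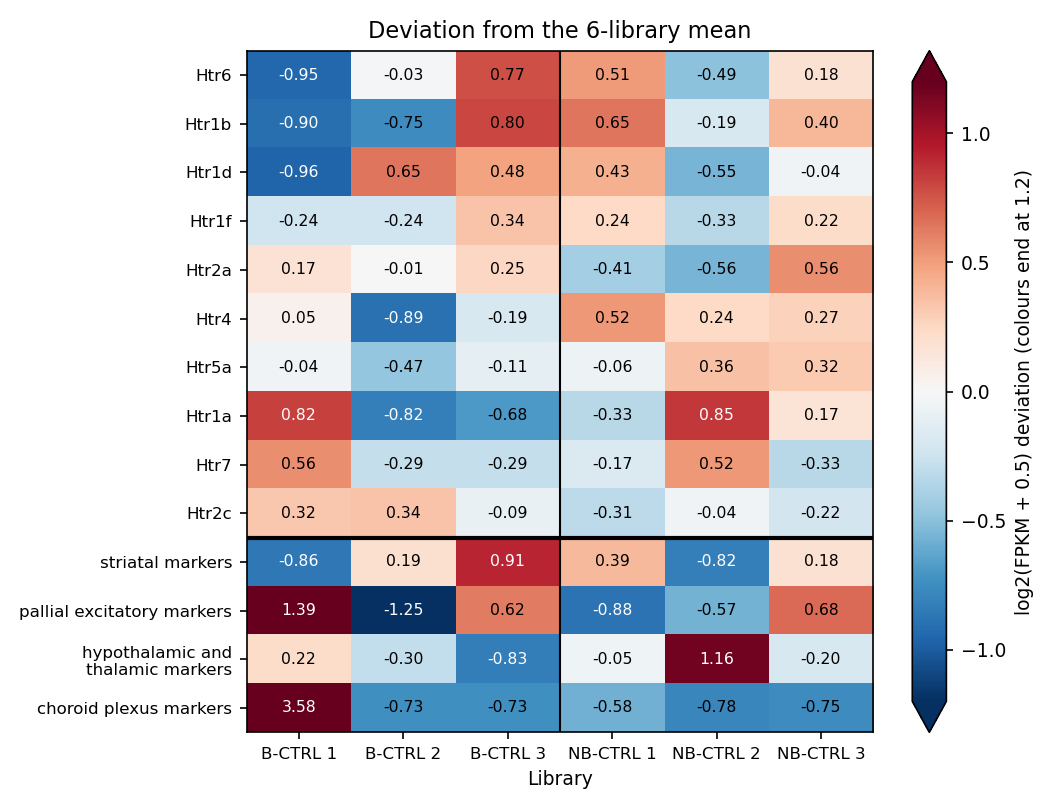
Deviation of each receptor from its own 6-library mean in log2(FPKM + 0.5) (upper rows), and scores of 4 marker lists (lower rows), by library. Red is above and blue below the mean. The rows of Htr6, Htr1b, Htr1d and Htr1f are blue in B-CTRL 1 and NB-CTRL 2 and red in B-CTRL 3, as is that of the striatal markers, while Htr1a and Htr7 are red in B-CTRL 1 and NB-CTRL 2. In B-CTRL 2 Htr1d is red (0.65) and Htr1b is blue (-0.75).

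The total of the 10 receptors differed less between libraries than its parts did. Their summed level was 117, 123 and 136 FPKM in B-CTRL, against 120, 108 and 121 FPKM in NB-CTRL. As a share of the FPKM of all features it was 0.0202%, 0.0191% and 0.0232% in B-CTRL, against 0.0224%, 0.0206% and 0.0230% in NB-CTRL. The mean sum was higher in B-CTRL (125 against 116 FPKM) and the mean share lower (0.0208% against 0.0220%). Htr2c alone made up 62.6%, 60.2% and 40.5% of the receptor sum in B-CTRL 1, 2 and 3, against 39.0%, 52.6% and 41.1% in NB-CTRL 1, 2 and 3. The Gi-coupled receptors together made up 20.7%, 23.9% and 38.0% of the sum in B-CTRL, against 40.2%, 31.1% and 35.5% in NB-CTRL. The Gs-coupled receptors made up 7.73%, 8.35% and 13.3% in B-CTRL, against 15.1%, 10.5% and 11.9% in NB-CTRL. The shares of each class overlapped between the groups, with B-CTRL 3 near the NB-CTRL libraries. The size of each share rests on the annotated lengths of the genes, as the order of levels does.

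**Figure D4:**
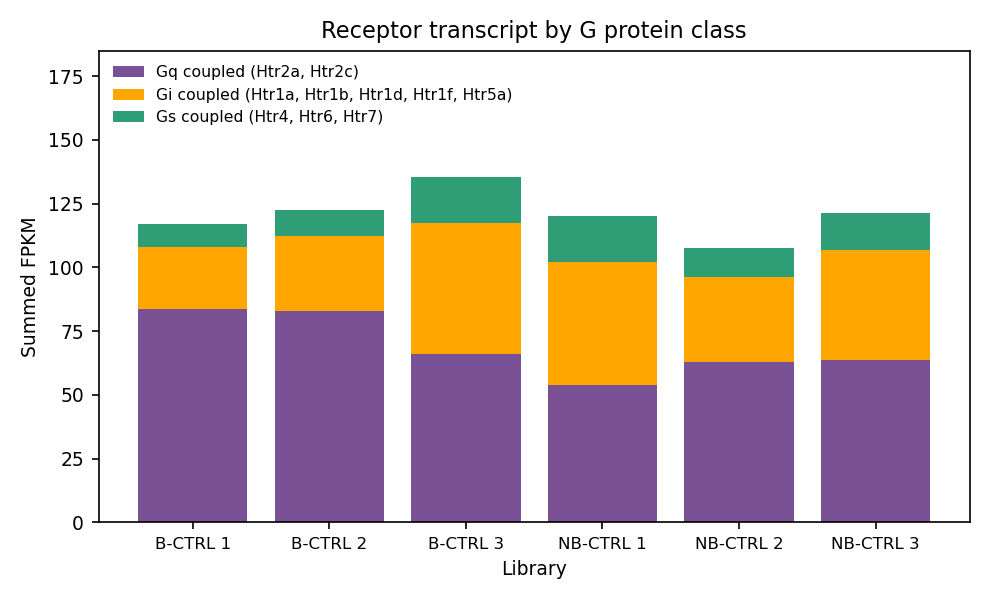
Summed FPKM of the receptors in each library, stacked by the G protein to which they couple. The purple Gq part, mostly Htr2c, lies between 66.0 and 83.7 FPKM in B-CTRL and between 53.8 and 63.8 FPKM in NB-CTRL, while the orange Gi part ranges from 24.2 to 51.5 FPKM within B-CTRL alone.

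The features whose deviations over the 6 libraries lay nearest to those of the 3 most abundant receptors were looked up among 13056 features that averaged 1 FPKM or more. Nearest to Htr2c were Pex3, Ndufa5 and Nrsn1, with root mean square differences of 0.036, 0.048 and 0.050 log2 and a median of 0.33 over all candidates. Pex3 serves peroxisome assembly, Ndufa5 is a subunit of respiratory complex I, and Nrsn1 is a neuronal vesicle protein. Nearest to Htr1b were Actn1, Bcr and Coro7 (0.098, 0.099 and 0.11 log2, median 0.71), of which Actn1 shares its locus with another feature. Nearest to Htr2a were Cnn2, Alas2 and Hsd17b14 (0.11, 0.12 and 0.14 log2, median 0.46), and Cnn2 shares its locus too. Alas2, a blood cell marker, and Hsd17b14 were scarce, at 0.660 to 2.05 FPKM and 0.627 to 2.01 FPKM. With 6 libraries such nearness describes these samples only.

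The receptors outside the 10 were scarce, with 1 exception. Htr3a, a subunit of the serotonin-gated ion channel found on interneurons, stood at 5.92, 9.83 and 9.73 FPKM in B-CTRL and at 8.51, 9.39 and 6.55 FPKM in NB-CTRL, a log2 difference of 0.037 ± 0.24 (SE, limma, adjusted p = 0.948). Htr5b stood at 0.601, 1.12 and 0.366 FPKM in B-CTRL and at 0.761, 1.43 and 0.812 FPKM in NB-CTRL (log2 difference -0.35 ± 0.32 SE, limma, adjusted p = 0.591). Htr2b, whose locus is merged with another gene, reached at most 0.0229 FPKM. Htr3b was listed at 0 in all 6 libraries, as were the 37 mitochondrial features and the neuropeptide gene Npy, so features listed at 0 need not be silent.

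The cell bodies that make serotonin lie outside the amygdala, and genes particular to them were low. Fev and Slc6a4, the transcription factor and the reuptake transporter of raphe neurons, reached at most 0.0468 and 0.0723 FPKM. Tph2, the rate-limiting enzyme of serotonin synthesis in neurons, stood at 1.22, 1.75 and 1.17 FPKM in B-CTRL and at 0.816, 0.339 and 0.843 FPKM in NB-CTRL. Each B-CTRL library lay above each NB-CTRL library, at levels near 1 FPKM, while 11.7% of all tested features did not overlap in that direction. The log2 difference of Tph2 was 0.71 ± 0.27 (SE, limma, unadjusted p = 0.0360, adjusted p = 0.400). The other 5 tested genes of this list were Ddc (-0.098), Gch1 (0.012), Pts (0.047), Spr (0.18) and Qdpr (0.41), given as log2 differences, and all overlapped between the groups. Tph1 (at most 0.0496 FPKM in B-CTRL and 0.122 FPKM in NB-CTRL) and Slc18a2 (at most 0.518 FPKM in B-CTRL and 0.606 FPKM in NB-CTRL) were under the minimum for testing.

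Downstream of the receptors no gene passed limma over all features either. Of 75 tested features of the whole serotonin pathway list, 0 passed, 27 had a higher and 48 a lower mean log2 level in B-CTRL, and 1 higher and 6 lower had an unadjusted p under 0.05, against 6.25% and 6.07% of all tested features. Of 25 effector genes, such as adenylyl cyclases, phospholipases and potassium channels, 22 had a lower mean log2 level in B-CTRL, where 50.3% of all tested features did, and their median log2 difference was -0.30, against -0.0024 over all. B-CTRL 2 was the lowest library for 13 of the 25, such as Adcy1 (2.24 FPKM there and 13.7 to 35.1 FPKM elsewhere), and for 29.3% of all tested features. Without B-CTRL 2, a setting chosen after seeing the data, 15 of 25 were lower and the median was -0.037. Rapgef3, a cyclic AMP sensor, stood at 12.8, 11.99 and 11.4 FPKM in B-CTRL and at 15.1, 15.3 and 15.4 FPKM in NB-CTRL, without overlap (log2 difference -0.33 ± 0.12 SE, limma, unadjusted p = 0.0314, adjusted p = 0.400). Plcb4 (-0.50) and Plcb3 (-0.36), phospholipases that Gq activates, were the next by p, and Plcb4 did not overlap between the groups. These effectors were picked by their p from 25, so a lack of overlap, as in 12% of all tested features with B-CTRL lower, adds nothing. Among 16 G protein features, 10 had a lower mean log2 level in B-CTRL, and Gnaz (-0.50), Gnaq (-0.63) and Gnao1 (-0.34), all alpha subunits, had the lowest p. Gnaq, the subunit to which Htr2a and Htr2c couple, stood at 44.3, 15.8 and 41.4 FPKM in B-CTRL and at 47.1, 47.7 and 48.6 FPKM in NB-CTRL, so B-CTRL 2 alone was far below.

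The 3 receptor partners and regulators with the lowest p all act on receptors described above. Cc2d1a, a repressor of Htr1a transcription, stood at 20.6, 20.3 and 24.5 FPKM in B-CTRL and at 32.2, 37.9 and 28.3 FPKM in NB-CTRL (log2 difference -0.58 ± 0.16 SE, limma, unadjusted p = 0.00770, adjusted p = 0.400). Adarb1, an RNA editing enzyme that acts on Htr2c, stood at 27.8, 21.9 and 38.1 FPKM in B-CTRL and at 40.8, 43.9 and 48.2 FPKM in NB-CTRL (log2 difference -0.62 ± 0.21 SE, limma, unadjusted p = 0.0207). Adar, the other editing enzyme of that transcript, stood at 37.8, 24.6 and 50.2 FPKM in B-CTRL and at 59.4, 65.0 and 53.3 FPKM in NB-CTRL (log2 difference -0.71 ± 0.25 SE, limma, unadjusted p = 0.0276). These 3 were picked by their p from 20 tested genes, so that their groups do not overlap, as in 12% of all tested features with B-CTRL lower, adds nothing. The editing of Htr2c itself was not measured here. Of 6 tested genes of uptake and breakdown, 5 had a higher mean log2 level in B-CTRL, and Slc29a4, a low-affinity monoamine transporter, had the lowest p at a log2 difference of -0.37 ± 0.18 SE, followed by Maob (0.23) and Aldh1a1 (0.15).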

How the data were processed

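Transcript levels were measured by poly(A)-selected, directional RNA-seq in 6 amygdala libraries, 3 of B-CTRL and 3 of NB-CTRL, as the titles of the labels group them. The deposited values are FPKM, per the file headers, 1 column for each library and none pooled. STAR 2.5.4b, Cuffdiff 2.2.1 and build rn6 stand in the submitters' processing notes, without settings or annotation release. Cuffdiff merges overlapping genes into 1 locus, and Htr2c and Htr7 share theirs with features at or near 0. Counts were not used here, so depth is unknown in absolute terms and no counting intervals are given.

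From these, log2(FPKM + 0.5) was computed for 14043 features averaging 0.5 FPKM or more, a scale that understates the change of low genes, and differences are on it. The test was limma 3.58.1 under R 4.3.3 (2-sided, intensity trend, no covariates, all 6 libraries), B-CTRL minus NB-CTRL, with Benjamini-Hochberg adjustment over all tested features and a threshold of 0.05. With 3 libraries a group, exact permutation p-values start at 0.1 and were left out. The fit was tested on simulated data made from the means and spreads of the same features. It called 50% of changes of 1 log2 and 87% of changes of 2 log2, with 8 false calls. The changes were placed only in features above the median level, so how often they would be called in scarcer receptors is unknown. The members and lists were chosen with earlier results of these data known. All 10 receptors are named, with all members of the lists of other receptors and of synthesis, and the 3 members with the lowest p of each other list. Of 85 pathway symbols, 84 matched a feature. Promoter and miRNA sequences are from RefSeq, build GRCr8, matched by symbol. 7 of 10 receptors had a promoter in that table.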

Additional observations from a re-analysis of the deposited data

How the results depend on the processing

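Over 16 alternatives (pseudocounts of 0.1 or 1, filters of none or 1 FPKM, scaling by median or quantiles, no intensity trend, weights for libraries, a replicate block, removal of the length trend, and each library left out), 0 of 10 receptors and 0 pathway genes passed limma in any. The lowest adjusted p of a receptor was 0.112, for Htr2c without B-CTRL 3. Over all features 1 passed without NB-CTRL 3 and 0 in each other alternative. The receptors' median log2 difference lay between -0.26 and 0.0016, the highest with quantile normalization. Htr1a, Htr1b, Htr2a, Htr2c, Htr4 and Htr5a kept their direction in all, and 4 others did not. The filters, the fit without intensity trend and the replicate block leave each log2 difference unchanged, so they do not bear on direction. Htr7 turned with median scaling (0.028), quantile normalization (0.13), library weights (0.25) and removal of the length trend (0.19), and ranged from -0.30 to 0.25 in all, or to 0.24 with a library left out. It has no value with the filter of 1 FPKM. Htr1f turned with quantile normalization (0.044) and ranged from -0.28 to 0.010 with a library left out. Htr1d turned with library weights (-0.31) and ranged from -0.19 to 0.62 with a library left out, and Htr6 ranged from -0.55 to 0.31. The causes were not tested. The order of levels kept 6 of 10 receptors at their rank without B-CTRL 1 and 8 to 10 without any other library. Deviations of libraries with the same number had correlations of -0.222, 0.0719 and 0.147 across features for numbers 1, 2 and 3. Libraries of unlike number had -0.295 to 0.215. With 3 libraries a group such correlations cannot tell whether the numbers pair the libraries. With the replicate block 0 receptors and 0 of all features passed. The log2 differences were by construction those without it, such as 0.38 for Htr2c and -0.69 for Htr4. The count of effector genes with a lower mean log2 level was 15 to 23 of 25 with a library left out. Absolute depth is unknown, so the counting error of scarce receptors such as Htr7 cannot be given.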
